A study of Caenorhabditis elegans with 2 samples.

Results

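The mitochondrial ribosomal protein genes of *C. elegans* were examined for peaks of eGFP-tagged LSY-2 at their transcript starts. Members were all protein-coding genes of the WBcel235 annotation whose symbol starts with mrpl- or mrps-, which gave 70 of 19973 protein-coding genes, 41 mrpl and 29 mrps. The peaks came from chromatin immunoprecipitation sequencing of strain OP240, genotype unc-119(ed3) III; wgIs240, in which wgIs240 is the insertion that carries the tagged lsy-2. There was 1 group of 2 biological replicates, each made of mixed-sex whole L4 larvae, and no untagged or second condition among the samples analysed here. Signal from whole larvae mixes all tissues, so the cells in which a site was occupied cannot be named.

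Mitochondrial ribosomes translate the few respiratory chain subunits encoded by mitochondrial DNA. Their RNAs come from that DNA, but their proteins are encoded in the nucleus, made in the cytosol and imported. Some of these proteins belong to families shared with bacterial ribosomes, and others occur only in mitochondria. In *C. elegans*, knockdown of one of the genes, mrps-5, is known to extend lifespan and to induce the mitochondrial unfolded protein response. Many worm genes also lie in operons, where later genes are transcribed from the promoter of the first. LSY-2 is a zinc finger protein best known for its role in the left-right asymmetry of the ASE taste neurons.

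A peak of the optimal list, the peaks that the authors kept after thresholding on reproducibility, had its summit within 500 bp of the start of 8 of the 70 genes (11.4%), against 4.78% of all protein-coding genes. Such genes are called bound here. They were mrps-28, mrps-7, mrpl-55, mrpl-28, mrpl-17, mrpl-49, mrps-18A and mrps-17, and no peak served more than 1 of them. No p is given, because the genes were chosen with results of these data known. The 101 bp windows centred on the summits, taken from RefSeq's version of the ce11 assembly, show the sequence at these peaks. Each is written 5′ to 3′ on the strand of the ribosomal protein gene. Capitals mark ACGCAG, and GCAAAC or its reverse complement GTTTGC. The mrpl-17 window is described without its letters.
mrps-28: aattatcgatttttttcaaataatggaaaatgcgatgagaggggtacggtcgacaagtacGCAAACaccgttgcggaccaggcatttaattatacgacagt
mrps-7: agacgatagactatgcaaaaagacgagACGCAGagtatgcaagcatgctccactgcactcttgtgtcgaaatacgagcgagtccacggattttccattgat
mrpl-55: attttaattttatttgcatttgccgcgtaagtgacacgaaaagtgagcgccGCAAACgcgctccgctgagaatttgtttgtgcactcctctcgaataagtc
mrpl-28: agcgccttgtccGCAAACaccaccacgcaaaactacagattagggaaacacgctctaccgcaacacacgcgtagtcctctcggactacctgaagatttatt
mrpl-49: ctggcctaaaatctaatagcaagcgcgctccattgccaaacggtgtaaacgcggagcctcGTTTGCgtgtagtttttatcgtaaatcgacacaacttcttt
mrps-18A: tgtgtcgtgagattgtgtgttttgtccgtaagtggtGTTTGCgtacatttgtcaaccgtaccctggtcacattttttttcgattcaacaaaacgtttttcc
mrps-17: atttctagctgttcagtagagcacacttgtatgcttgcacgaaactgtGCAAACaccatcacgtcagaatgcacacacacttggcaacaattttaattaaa

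On ce11 these windows are chrV:19644064-19644164 (plus strand) for mrps-28, chrIV:14767819-14767919 (minus) for mrps-7 and chrIV:443814-443914 (plus) for mrpl-55. They are chrII:156055-156155 (minus) for mrpl-28, chrV:12728425-12728525 (plus) for mrpl-49, chrIII:8331940-8332040 (minus) for mrps-18A and chrIII:6431883-6431983 (minus) for mrps-17. None of them overlapped an annotated exon, so all lay in sequence between genes.

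Among mrps genes, the strongest peak was at mrps-28 (WBGene00012830, chromosome V, 19644239 to 19645676). Its pooled signal, the authors' own value for each peak, was 182, rank 248 of the 1563 optimal peaks. On the separate scales of the replicates it was 73.6 in replicate 1 (rank 332 of 25003 candidates) and 108 in replicate 2 (rank 212 of 24002). This peak stood apart from those of the other 7 genes, which had pooled signals of 113 or less.

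Next among them was mrps-7 (WBGene00013324, chromosome IV, 14766773 to 14767730), whose bacterial homologue starts the assembly of the small subunit's head. Its pooled signal was 113, with 56.2 in replicate 1 and 52.5 in replicate 2. mrps-17 (WBGene00015487, chromosome III, 6431042 to 6431798), whose bacterial homologue binds ribosomal RNA directly, had the weakest bound peak of the family. Its pooled signal was 66.5, with 25.6 in replicate 1 (rank 2218) and 36.6 in replicate 2 (rank 1352), so it fell within the first 1563 candidates of replicate 2 but not of replicate 1. mrps-18A (WBGene00022583, chromosome III, 8330893 to 8331919), whose human counterpart sits in the large subunit despite its name, had a pooled signal of 68.5. Its ranks were 1343 in replicate 1 and 1711 in replicate 2, the reverse order of those at mrps-17. Both peaks thus lay close to the end of the optimal list, whose lowest signal was 60.3.

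The mrpl genes had a narrower range. mrpl-55 (WBGene00022045, chromosome IV, 443985 to 444786), of a family found only in mitochondria, had a pooled signal of 111, with 46.6 in replicate 1 and 62.04 in replicate 2. mrpl-28 (WBGene00020796, chromosome II, 154881 to 156009), of a family shared with bacteria, had 101 pooled, 47.1 in replicate 1 and 49.2 in replicate 2. In replicate 1 mrpl-55 and mrpl-28 were close to each other and below mrps-7 (56.2). In replicate 2 mrpl-28 was close to mrps-7 (52.5), and mrpl-55 was above both. mrpl-17 (WBGene00021829, chromosome I, 3162813 to 3163585), whose bacterial homologue lies near the exit of the peptide tunnel, had 88.8 pooled, 40.5 in replicate 1 and 43.1 in replicate 2. mrpl-49 (WBGene00011247, chromosome V, 12728631 to 12729417), of a family found only in mitochondria, had 78.3 pooled, 38.6 in replicate 1 and 37.3 in replicate 2. Both had a lower signal than mrpl-28 and mrpl-55 in each replicate, and a higher one than mrps-18A and mrps-17.

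**Figure D1:**
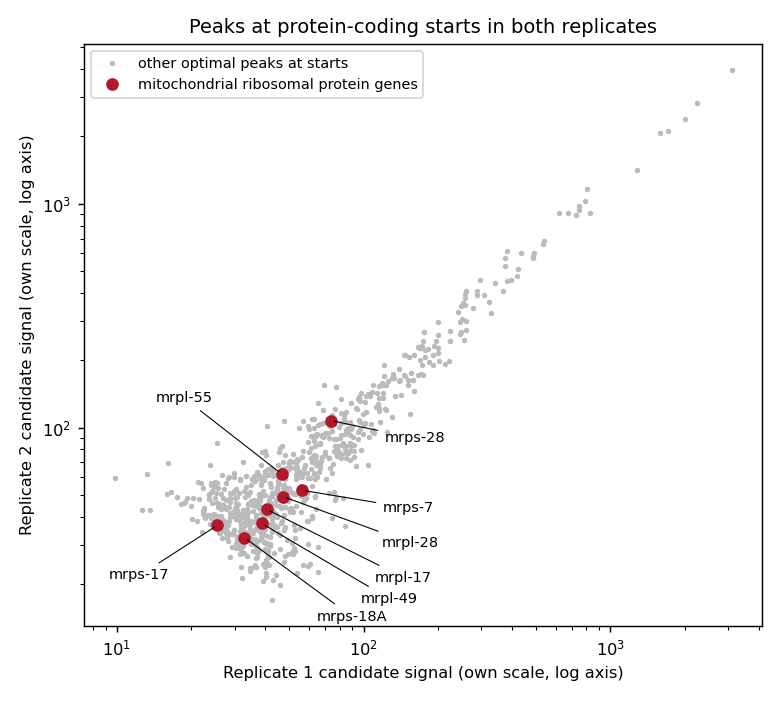
Signal of the replicate 1 candidate (horizontal) and the replicate 2 candidate (vertical) overlapping each optimal peak at a protein-coding start, each on its own scale and on log axes. The 8 mitochondrial ribosomal protein genes (red) lie among the other start peaks (grey), far below the strongest of them, and mrps-28 is the highest of them in both replicates.

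All 8 peaks had a candidate in both replicates. The optimal list was itself kept on reproducibility, so this adds no separate support. The replicate summits lay 0 to 23 bp from the pooled summit in replicate 1 and 0 to 39 bp in replicate 2. In 6 of the 8 the candidate was among the 1563 strongest of both replicates, which also held for 557 of the 779 optimal peaks at any start (71.5%). Their median pooled signal of 94.7 was close to the 95.4 of all peaks at starts, while the highest of the family, 182, was far under the 7029 reached by the strongest start peak. With the list cut to its 782 strongest peaks, 4 of the genes were still bound, mrps-28, mrps-7, mrpl-55 and mrpl-28, against 2.76% of all protein-coding genes.

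By symbol, 4 of 41 mrpl genes (9.76%) and 4 of 29 mrps genes (13.8%) were bound. The symbol does not always give the subunit, as for mrps-18A, one of the bound mrps genes, whose human counterpart is in the large subunit. In a grouping by the family of their human counterparts, 5 of 42 genes placed with bacterial relatives were bound (11.9%). Of 28 placed as found only in mitochondria, 3 were bound (10.7%). The 28 include mrps-18A and mrps-18B, although mrps-18C, which shares their symbol, was placed with bacterial relatives. The split is therefore uncertain for these genes, and mrps-18A is among the 3 bound. This grouping was made after the bound genes were known. By chromosome, bound genes were 1 of 15 on I, 1 of 12 on II, 2 of 22 on III, 2 of 11 on IV and 2 of 10 on V. No member lies on X. The share of all protein-coding genes bound on each chromosome was not computed, so no difference between chromosomes is read from these counts.

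All 8 summits lay upstream of the gene's start. Their positions ran from -166 bp at mrpl-17 to -71 bp at mrps-18A, with a median of -130 bp. For all 779 start peaks the median was -178 bp with quartiles of -278 and -76 bp, and 89.2% lay upstream of their nearest start. A window of 250 bp instead of 500 bp gave the same 8 genes, while the share of all protein-coding genes was 2.90%.

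**Figure D2:**
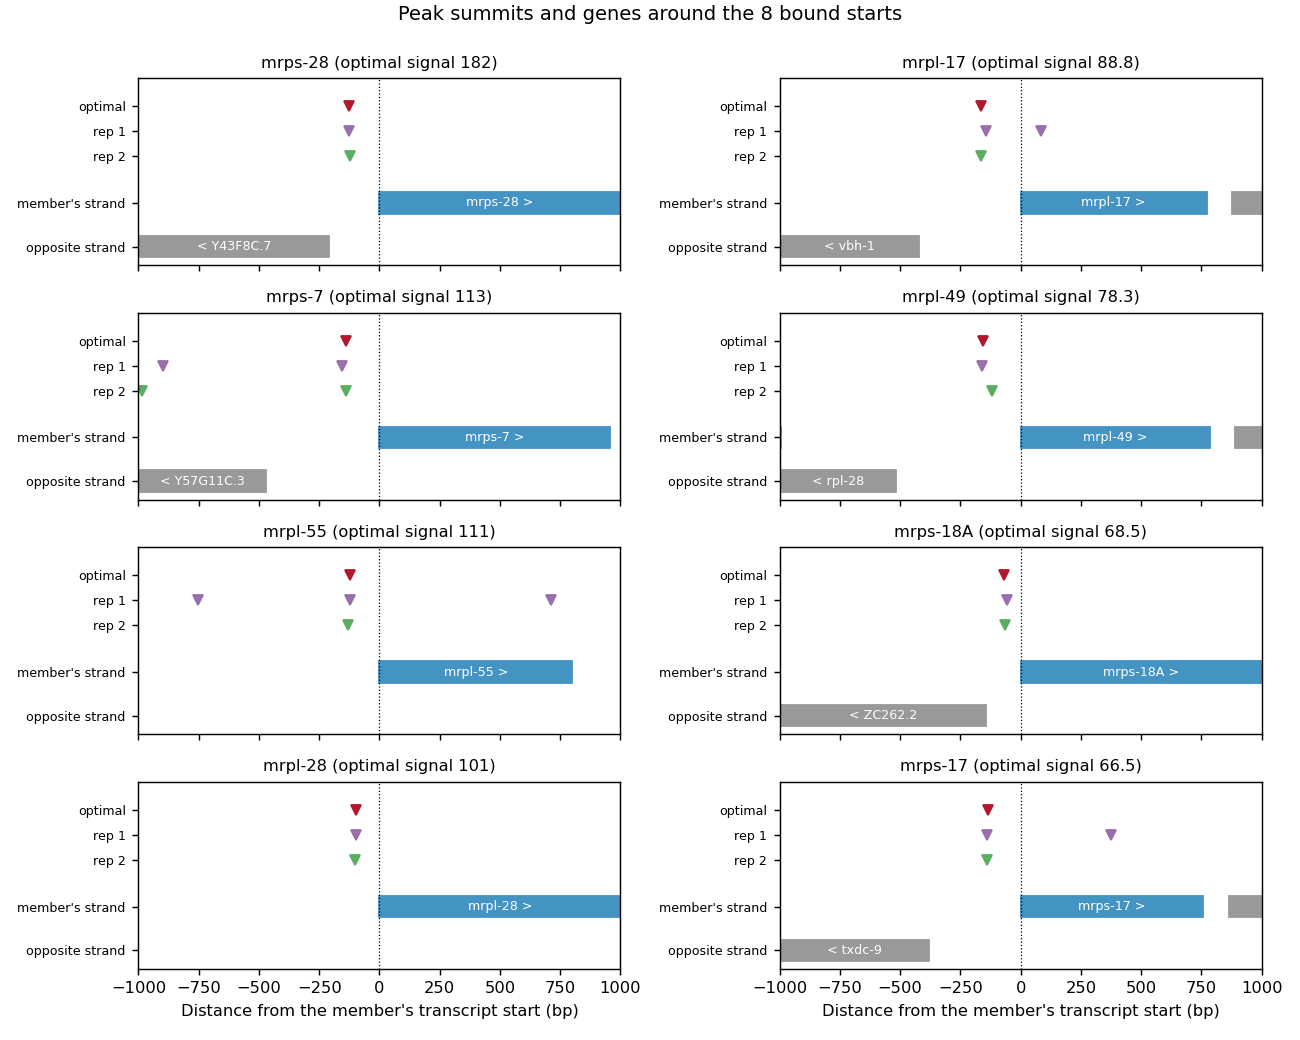
Maps of the 8 bound starts on a scale of distance from the transcript start of the ribosomal protein gene in bp, ordered by signal down each column. Triangles mark summits of the optimal list and of each replicate's candidates, blue bars the ribosomal protein gene and grey bars other protein-coding genes on the same or the opposite strand. All 8 optimal summits lie between 166 and 71 bp upstream, with a summit of each replicate beside them.

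Most of these peaks lay between 2 genes that are read away from each other. In 6 of 8 cases the summit was also within 500 bp of a second protein-coding start on the opposite strand, against 207 of 779 start peaks shared by any pair of starts (26.6%). The partners were Y43F8C.7 at mrps-28, Y57G11C.3 at mrps-7, vbh-1, which encodes a DEAD-box RNA helicase, at mrpl-17, rpl-28 at mrpl-49, ZC262.2 at mrps-18A and txdc-9, which encodes a thioredoxin-domain protein, at mrps-17. At mrpl-49 the partner, rpl-28, encodes a protein of the large subunit of the cytosolic ribosome. The summit lay at -363 bp from its start and at -156 bp from that of mrpl-49. At mrps-28 the summit was nearer to the start of Y43F8C.7 (-84 bp) than to that of mrps-28 (-125 bp). At mrps-18A it was at -71 bp from its own start and -72 bp from that of ZC262.2. To which gene of a pair such a peak belongs cannot be told apart from position alone. mrpl-28 and mrpl-55 had no such partner, with the nearest upstream gene 6364 bp and 3430 bp away. Within 250 bp, 3 of the 8 peaks met a second start, against 16.2% of all start peaks at that window. Both background shares count each peak once, whereas a shared peak could enter the 8 through any of its genes. At 500 bp, all 954 bound genes fell on the 779 start peaks. A background share counted by gene would therefore be higher than 26.6%, and it was not computed.

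All 8 bound members had a divergent upstream neighbour. The next protein-coding gene upstream was on the opposite strand for 36 members, and 8 of these were bound (22.2%), against 7.29% of all 9071 protein-coding genes with that layout. It was on the same strand and over 500 bp away for 7 members, of which 0 were bound, against 2.62% of all such genes. The other 27 members (38.6%, against 18.1% of all protein-coding genes) were later genes of a closely spaced run, defined by a gap of at most 500 bp to an upstream gene on the same strand. None of these 27 was bound at its own start, against 2.82% of all such genes. The counts are small, and with a background this low an absence among 27 genes says little. Divergent genes at most 1000 bp apart were bound in 6 of 26 members and in 12.4% of all genes, and those farther apart in 2 of 10 members and in 4.09% of all genes.

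**Figure D3:**
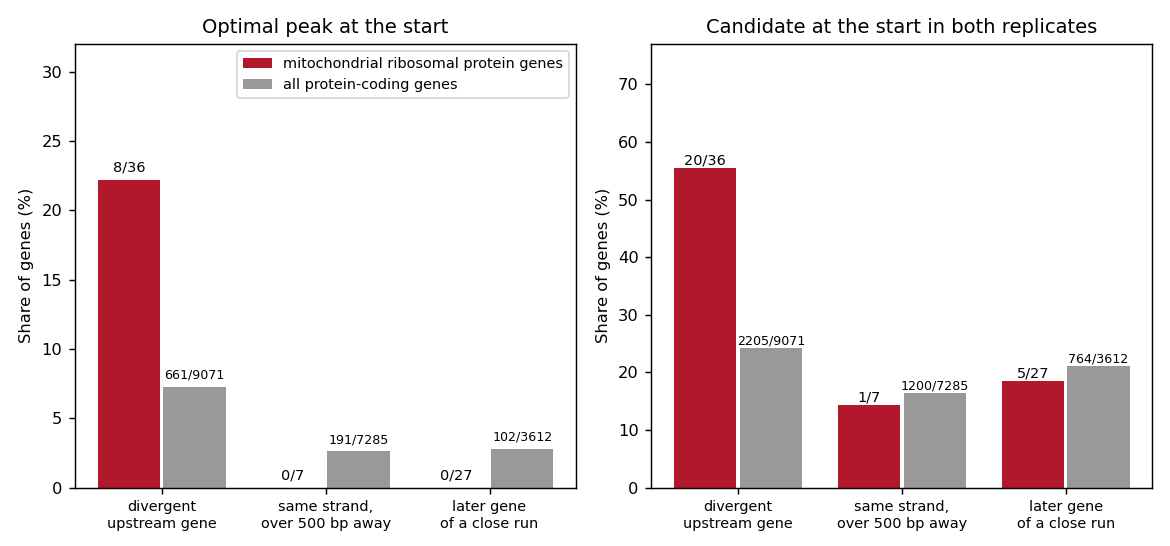
Share of genes in percent with an optimal peak at the start (left) and with a candidate at the start in both replicates (right), by the position of the next upstream gene, for mitochondrial ribosomal protein genes (red) and all protein-coding genes (grey). Fractions above the bars are genes called over genes in the class, and all 8 bound members are in the divergent class.

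For the 27 later genes, the start of the run's first gene was examined instead. It was bound in 5 cases (18.5%), against 9.27% of all 3612 later genes. mrpl-54 follows clsp-1, which encodes a claspin homologue, and the peak there had a signal of 1085 (rank 18 pooled and 18 and 20 in the replicates). That summit lay 11 bp from the start of the divergent elongation factor gene eef-2 and 254 bp from that of clsp-1. mrpl-32 follows the proteasome gene rpn-3, with a signal of 274 at a summit also within 500 bp of the chaperone gene hsp-110.

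mrps-21 follows F29B9.11 (217, with the histone demethylase gene jmjd-1.2 on the other side). mrps-30, whose human counterpart is a large-subunit protein, follows the initiation factor gene eif-3.E and cdc-26 (123). mrps-11 follows W04D2.4 (61.9, with rbm-25 on the other side), where replicate 1 had rank 3874 and replicate 2 rank 951. The summits lay 1.01 to 3.998 kb from the starts of the ribosomal protein genes themselves. Counting a peak at the own start or at the head of the run gave 13 of 70 members (18.6%), against 6.36% of all protein-coding genes. Closely spaced genes need not form an operon, and no operon annotation was used. With a gap of at most 200 bp, 2 of 20 later members had a bound head, against 13.1% of all later genes. At that gap the members' share was thus not above the background. mrpl-54 and mrpl-32, which have the strongest head peaks, lie 373 and 410 bp behind the gene before them and drop out there. mrps-30 drops out too, although it lies 109 bp behind cdc-26, as its run then no longer starts at eif-3.E. mrps-21 and mrps-11, with gaps of 113 and 105 bp, remain.

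Candidates of any strength were more widespread. The candidate lists were deposited as peaks with background, so a candidate alone does not mark a binding site. A candidate of the pooled list lay within 500 bp of 38 of the 70 starts (54.3%), against 29.8% of all protein-coding genes. A replicate 1 candidate lay at 38 (32.1% of all protein-coding genes) and a replicate 2 candidate at 33 (31.3%). Candidates in both replicates were found at 26 (37.1%), against 20.9%, and they overlapped each other at 23 (32.9%), against 18.9%. The 38 and the 26 include the 8 bound members, and the shares of all genes likewise include bound genes. All 8 are also among the divergent members counted below. In 3 of the 26 the candidates of the replicates did not overlap. Of the 36 members with a divergent neighbour, 20 had a candidate in both replicates (24.3% of all such genes), while 5 of the 27 later genes did (21.2% of all such genes). Among the 26 divergent members at most 1000 bp from their neighbour it was 14, against 33.6% of all such genes. By symbol, 15 of 41 mrpl and 11 of 29 mrps genes had candidates in both.

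Of the 62 unbound members, 30 had a pooled candidate, 9 only a candidate in a replicate and 23 none in any list. The 30 candidates had a median signal of 25.4 and a range of 17.3 to 47.6, against a median of 25.1 for the other unbound genes with one. Candidates were present in both replicates for 16 of the 30 members. Neither this count nor the split of the 62 was made for all unbound genes, so neither is read as particular to the members. No member had a signal between 47.6 and 66.5, so none lay just under the lowest optimal signal.

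The strongest unbound candidate was at mrpl-47 (47.6, rank 2403, ranks 2395 and 4270 in the replicates), of a family whose bacterial member lies near the tunnel exit, with its summit 12 bp inside the gene. mrpl-40, of a family found only in mitochondria, had 45.96, with its summit at -207 bp. mrpl-45, whose human counterpart lies at the tunnel exit beside the inner membrane, had 45.4 at -360 bp. Its candidates ranked 8316 in replicate 1 and 1625 in replicate 2, so the replicates differed in how strong it was. mrpl-35 followed at 43.6 and mrps-16 at 39.98, both of families shared with bacteria, and each had a candidate in both replicates.

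**Figure D4:**
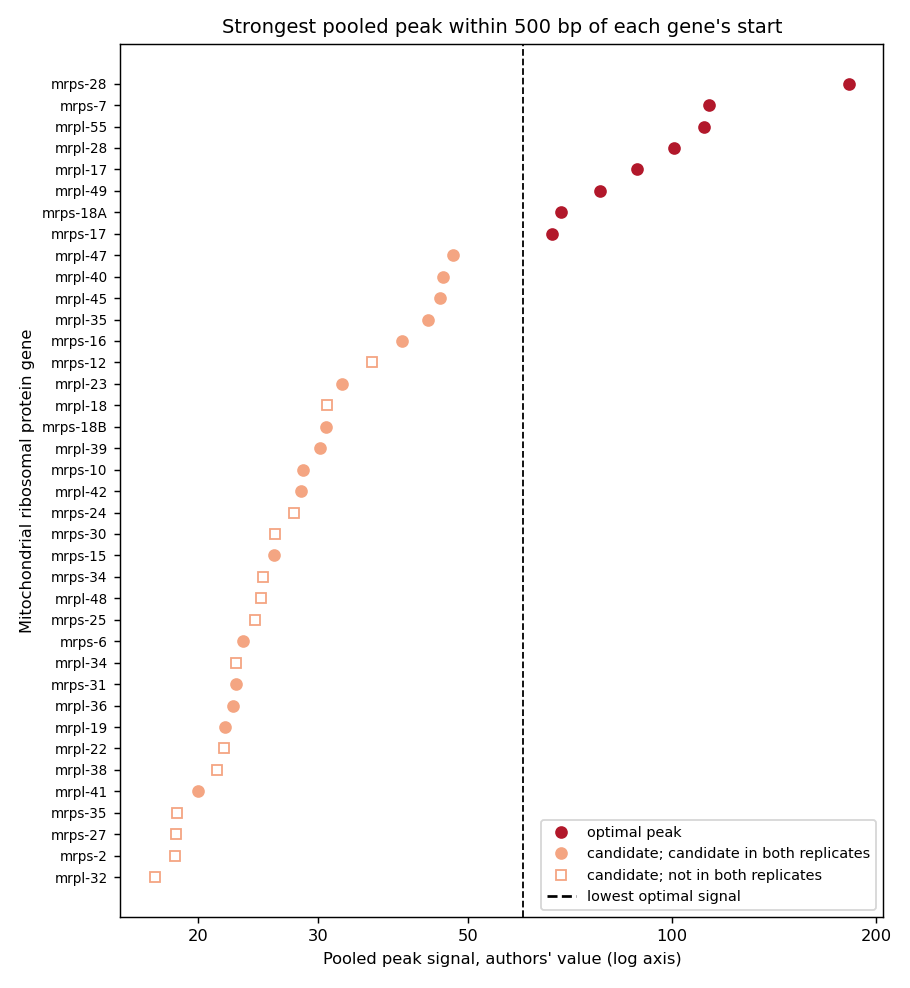
Pooled signal (log axis) of the strongest pooled peak within 500 bp of the start for the 38 mitochondrial ribosomal protein genes that have one. Red points are the 8 optimal peaks, pale points and open squares the 30 weaker candidates with and without a candidate in both replicates, and the dashed line is the lowest optimal signal of 60.3; the gap between mrpl-47 at 47.6 and mrps-17 at 66.5 contains no member.

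mrps-5, the gene known from lifespan studies, is the later gene of a run behind sel-1. It had no optimal or pooled peak at its start and a single weak candidate in replicate 2 (signal 13.03). The other members with a candidate only in a replicate were mrpl-54 and mrps-23, which had one in each, and mrpl-1, mrpl-2, mrpl-37, mrpl-46, mrps-9 and mrps-21, which had one in a single replicate. In replicates 1 and 2 the summits lay at 300 and -367 bp at mrpl-54, and at 78 and -477 bp at mrps-23. For these genes the replicates thus did not mark the same place. mrpl-10 and mrpl-12, whose bacterial homologues form the stalk that recruits translation factors, had no candidate in any list. The same held for mrpl-4, mrpl-9, mrpl-11, mrpl-13, mrpl-15, mrpl-16, mrpl-20, mrpl-21, mrpl-24, mrpl-30, mrpl-44, mrpl-50, mrpl-51, mrpl-53, mrps-11, mrps-14, mrps-18.C, mrps-18C, mrps-22, mrps-26 and mrps-33. Depth is unknown, so these are starts without a listed region, not starts shown to be free of the protein. With a window of 1000 bp, mrpl-15, mrpl-23 and mrpl-37 joined the bound genes, with the nearest optimal summit 0.693, 0.984 and 0.683 kb from their starts. That made 11 of 70 bound, while the share of all protein-coding genes was 6.19%.

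The summits were searched for elements that are frequent at LSY-2 peaks. GAGAGA or its reverse complement TCTCTC, searched on both strands within 50 bp of the summit, was found in 0 of 8 windows. It was present in 24.3% of windows at the 779 start summits, in 29.8% at all 1563 optimal summits, and in 7.99% of windows of that length centred 178 bp upstream of all protein-coding starts. ACGCAG or CTGCGT was found at mrps-7 only, so in 1 of 8 windows (12.5%), against 20.03% of start summits and 3.06% of all protein-coding starts. Within 100 bp of the summit, GAGAGA was present at mrpl-17 and mrps-18A, so in 2 of 8 windows, against 38.5% of start summits and 14.7% of all protein-coding starts in windows of that length. With 8 windows, shares of this size rest on single genes.

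A different element recurred in the printed windows. GCAAAC or GTTTGC lay within 50 bp of the summit at mrps-28, mrpl-55, mrpl-28, mrpl-49, mrps-18A and mrps-17, in 6 of 8 windows. It was singled out after the 7 printed windows had been read, so its share there is a description and supports nothing. Across start summits outside the family it was present in 123 of 771 windows (15.95%), at all optimal summits in 11.96%, in windows 500 bp to either side of them in 4.93%, and at all protein-coding starts in 5.80%. The longer form GCAAACACC, or its reverse complement GGTGTTTGC, was present at mrps-28, mrpl-28, mrps-17 and mrps-18A, in 4 of 8 windows. It lay in 38 of the 771 other start windows (4.93%) and in 0.401% of windows at all protein-coding starts, and it too was picked from the printed windows.

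The shorter element was absent at mrpl-17 and mrps-7. It was present at 3 of the 30 candidates of unbound members (10%), against 6.99% of the 6048 weaker candidates at all starts. These 3 were mrpl-45, mrpl-48 and mrpl-32. At mrpl-45 it occurred in 2 copies, chrIII:1202318-1202418 (minus strand), shown because none of the other windows at members' pooled peaks repeats it:
mrpl-45: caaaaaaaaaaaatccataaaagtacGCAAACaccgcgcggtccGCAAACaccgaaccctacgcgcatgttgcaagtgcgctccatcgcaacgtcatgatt

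The shorter element lay at 3 of 57 summits of cytosolic ribosomal protein genes (5.26%) and 1 of 15 of respiratory chain genes (6.67%). The cytosolic list includes rpl-28, whose start peak is that of mrpl-49, a window that holds the element. The cytosolic windows are therefore not separate from those of the members. GAGAGA was present at 5 of the 30 candidates of unbound members (mrps-15, mrpl-40, mrpl-35, mrps-34 and mrps-12), against 10.5% of weaker candidates at all starts. Mean GC content was 45.05% in the 8 windows and 48.03% at all start summits. At the unbound members it was 31.7% in windows centred 178 bp upstream of the start, and 34.3% at all protein-coding starts. Base composition differed between these sets, and its part in the element counts was not tested.

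Other nuclear genes for mitochondrial gene expression and import gave mixed counts. None of the 7 mitochondrial translation factor genes found (tufm-1, tufm-2, tsfm-1, gfm-1, mrrf-1, mtrf-1L and dap-3, the last a small-subunit protein by its human counterpart) was bound. None of 7 genes for mitochondrial DNA upkeep and transcription was bound either. With 4.78% of all protein-coding genes bound, 0 of 7 cannot be told apart from the background. Of 19 import genes 5 were bound (26.3%), including ucr-1, which is also counted in the respiratory list. They were led by the small chaperone gene ddp-1 (167), the receptor gene tomm-20 (124) and the channel gene timm-17B.1 (90.6). Of 14 chaperone, protease and stress genes 3 were bound (21.4%), the prohibitin genes phb-1 (147) and phb-2 (71.2) and the mitochondrial Hsp70 gene hsp-6 (92.5).

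Respiratory chain and ATP synthase genes, whose products include the partners of the proteins that mitochondrial ribosomes make, had 15 of 61 bound (24.6%) with a median signal of 199, led by cox-5A (3655), cox-5B (1612) and atp-1 (1194). Cytosolic ribosomal protein genes had 59 of 82 bound (71.95%) with a median signal of 245, led by rpl-3 (7029), rpl-20 (5056) and rpl-15 (4423). The mitochondrial ribosomal protein genes, at 11.4% and a median of 94.7, were lower on both measures than either list. Later genes of closely spaced runs made up 38.6% of them, 32.8% of the respiratory list and 10.98% of the cytosolic list. Whether run position accounts for any of the difference in bound share was not tested, and no test of the differences between lists was made.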

How the data were processed

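The deposited files used were the ce11 narrowPeak lists: candidates for each replicate, candidates from both replicates pooled, and the optimal list. Signal is the authors' value per peak, as deposited, on a separate scale for each list. The −log10 q values deposited by the authors were at their maximum for many strong peaks, so peaks were ranked by signal. The aligner, peak caller and read depth are not given in the sources used here, so depth is unknown and no value here covers counting error. All 1563 optimal peaks were the pooled candidates of highest signal.

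Starts were those of protein-coding transcripts in Ensembl release 115 (WBcel235, the ce11 assembly). Upstream neighbours were the nearest non-overlapping protein-coding genes. Scripts used Python 3.11.15, pandas 2.3.3 and numpy 2.4.6, and were tested on simulated peaks. Only descriptions were made: with 1 group there is no contrast to test. Every bound member was named, then the 5 strongest unbound candidates, members with a bound run head, members with no candidate, and up to 3 bound genes per pathway list. The symbol pattern for import genes also met tam-1 and tim-1, which have other roles and were left out. Grouping by bacterial family and the element GCAAAC were chosen after values were seen. Members and lists were chosen with earlier results of these data known.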

Additional observations from a re-analysis of the deposited data

How the results depend on the processing

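Of 30 alternatives, 18 were classed as leaving the result the same, including every one for the share of summits upstream. That class was broad. With a 1000 bp window it took in 11 bound genes instead of 8 (6.19% of all protein-coding genes). It also took in 37 members with candidates in both replicates instead of 26 (30.8% of all protein-coding genes). The bound count was 4 with the 782 strongest optimal peaks, against 2.76% of all protein-coding genes. It was 7 without replicate 1 (4.67% of all protein-coding genes) and 7 without replicate 2 (4.55%), using the strongest candidates of the other replicate. Without replicate 1 mrps-18A was lost, and without replicate 2 mrps-17. With nearest-gene assignment mrps-28 was lost, which left 7, against 3.78% of all protein-coding genes. The median signal was 88.8 with a 1000 bp window, 112 with the 782 strongest, and 43.5 to 46.2 on the replicates' own scales. Peaks shared with a second start numbered 3 within 250 bp and 2 of 4 among the 782 strongest (31.9% of all start peaks there). Members with candidates in both replicates numbered 17 within 250 bp (11.996% of all protein-coding genes) and 10 among the 5000 strongest of each (7.24%). Bound run heads numbered 2 with a 200 bp gap (13.1% of all later genes) and 8 with a 1000 bp window (12.02%). GAGAGA lay in 2 windows within 100 bp. GCAAAC stayed at 6 within 100 bp, an alternative added after seeing the data. No paired analysis was possible because there is 1 group. Depth is unknown, and 8 peaks give imprecise shares.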

Other observations

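Several members are neighbours of each other or of related genes. mrpl-1 and mrps-24 are divergent, with 343 bp between them and the start of emc-6, which overlaps mrpl-1, in that interval, and neither had an optimal peak at its start. A pooled candidate with a signal of 27.7 lay 371 bp inside mrps-24, with a candidate in replicate 2 but not in replicate 1. mrps-2 and mrpl-4 follow natc-1 in 1 run, with 105 bp between the ribosomal protein genes, and the head of that run was not bound. mrps-22 follows dap-3 at 105 bp in a run that starts with rpb-6, a gene for an RNA polymerase subunit, and that head was not bound either. mrps-15 is divergent from the ATP synthase gene asg-1, with 323 bp between them. It had a pooled candidate of 25.9 at -258 bp and candidates in both replicates. That summit lies nearer to asg-1 than to mrps-15, and asg-1 also counted as having a pooled candidate.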
